A study of Mus musculus with 24 samples.

Results

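The values of 8 genes of the monocyte and macrophage lineage were followed through 24 QuantSeq libraries of mouse lymphoid progenitors (LPs) and early T cell progenitors. The 8 genes, *Mrc1*, *F13a1*, *Cfp*, *Mpo*, *Csf1r*, *Csf2ra*, *Csf2rb* and *Lyz2*, were found by symbol among the 55487 genes listed for both experiments, and each symbol matched 1 gene. They were chosen by their CPM values in sgCbfb against sgCont cells, so those comparisons are given for them as a description, without a test. In QuantSeq, cDNA is primed with oligo(dT) and the 3′ end of each transcript is sequenced. The cells were Cas9-LPs, *Ebf1*-deficient progenitor lines from fetal liver of Rosa26-Cas9 knock-in mice, which grow on OP9 stroma with SCF, Flt3L and IL-7. All 8 groups share this background, together with a retroviral sgRNA that carries an hNGFR marker and a sort of hNGFR+CD45+ cells 5 days after transduction. In the first experiment LPs and Phase 1 cells carried sgCont, against luciferase, or sgCbfb, against the non-DNA-binding partner of the RUNX factors. Phase 1 cells are LPs moved to OP9-DLL4 stroma for 2 days of Notch stimulation. In the second experiment LPs carried sgCont, sgCbfb, sgCTCF, against the architectural factor CTCF, or sgMed12, against a subunit of the Mediator kinase module. Each group has 3 libraries. The labels do not tie them to lines or clones, so the spread between them may be in part technical, and a transduced pool can hold unedited cells.

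*Mrc1* encodes the mannose receptor CD206, an endocytic lectin of macrophages, and *F13a1* encodes the A subunit of coagulation factor XIII, a transglutaminase that is made by monocytes, macrophages and megakaryocytes. *Cfp* encodes properdin, which stabilises the convertase of the alternative complement pathway, and *Mpo* encodes the myeloperoxidase of early myeloid progenitors and neutrophil granules. *Csf1r* encodes the M-CSF receptor, on which most tissue macrophages depend, *Csf2ra* and *Csf2rb* encode the ligand-binding and the shared signalling chain of the GM-CSF receptor, and *Lyz2* encodes the lysozyme of mature myeloid cells. RUNX factors with their CBFβ partner and PU.1 act on many myeloid and lymphoid genes from the progenitor stage on, and early T progenitors keep a residual myeloid potential until commitment.

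Values are CPM, the reads of a gene scaled to a fixed total of reads on genes, and the experiments were scaled separately, so levels are compared only within one of them. Between 1363263 and 1743319 reads on genes were available per library in the first experiment and between 3354483 and 4326782 in the second, so that the level compatible with no read reaches 1.72 to 2.20 CPM and 0.693 to 0.894 CPM (3 reads, counting error only). Within groups, libraries correlated across genes at r = 0.896 to 0.953 and 0.956 to 0.982. Phase 1 sgCont replicate 3 and sgMed12 replicate 2 stood farthest from their group. The latter correlated more closely with the sgCont libraries (r = 0.971 to 0.977) than with sgMed12 replicates 1 and 3 (0.956 and 0.967). *Cbfb* mRNA was lower with sgCbfb in LPs of the first (40.2 ± 5.18 against 86.5 ± 9.30 CPM, SD, n = 3) and second experiment (48.4 ± 6.93 against 114.3 ± 8.37 CPM), whereas Phase 1 libraries overlapped (53.9 ± 9.69 against 66.5 ± 19.2 CPM). *Ctcf* was 272.3 to 330.3 CPM with sgCTCF and 355.9 to 413.2 CPM with sgCont, and *Med12* was 7.01 ± 3.38 CPM with sgMed12 and 5.14 ± 1.26 CPM with sgCont. A 3′ read lies away from an sgRNA cut, so these levels, like the *Ebf1* reads of every group, do not check the edit or the deletion. The progenitor label rests on *Ptprc* (group means of 377.4 to 732.7 CPM), *Il7r* (100.6 to 274.8 CPM) and *Flt3* (36.1 to 276.1 CPM).

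Markers of mature macrophages were in part absent. Of 29 further monocyte and macrophage genes, 9 were at 0 in all 24 libraries (*Cd163*, *Ms4a7*, *Msr1*, *C1qa*, *C1qb*, *C1qc*, *Cd14*, *Lyz1* and *Clec7a*), and *Csf1r* and *Lyz2* were near 0 in most groups. Others of the list were expressed, with group means of 17.3 to 100.3 CPM for *Adgre1*, 13.9 to 82.9 CPM for *Fcgr3*, 21.97 to 123.2 CPM for *Ccr2* and 8.74 to 270.4 CPM for *Ly6c2*. Of 16 neutrophil granule genes, 15 stayed at 3 reads or fewer in every library of the first experiment and 12 did so in the second. At the filter on low values (1 CPM or more in 3 or more libraries), 7 of the 8 genes entered the test of the first experiment and all 8 that of the second. *Lyz2* did not enter the first. Because the libraries come from cell pools, a larger number of cells with a transcript and more RNA of it per cell cannot be told apart.

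*Mrc1* (chr2:14229392-14332057, plus strand, GRCm38) was at most 8.86 CPM in every library except those with sgCbfb. In LPs of the first experiment it was 7.08, 5.57 and 1.93 CPM with sgCont and 217.9, 222.6 and 222.6 CPM with sgCbfb. In Phase 1 cells it was 2.82, 1.29 and 0.733 CPM with sgCont, that is 4, 2 and 1 reads, and 201.0, 204.2 and 223.4 CPM with sgCbfb. All 6 sgCbfb libraries lay far above the 6 sgCont libraries, and LPs and Phase 1 cells with sgCbfb overlapped. In the second experiment it was 4.22, 8.86 and 5.60 CPM with sgCont, 508.0, 460.2 and 446.7 CPM with sgCbfb, 3.76, 2.78 and 3.70 CPM with sgCTCF and 2.54, 4.36 and 7.38 CPM with sgMed12. The sgCont, sgCTCF and sgMed12 groups could not be ordered beyond their spread, except that every sgCTCF library was below every sgCont library. The ratios of the sgCbfb to the sgCont mean were 45.5 in LPs of the first and 75.7 in LPs of the second experiment. On the log2(CPM + 1) scale of the fit, the differences were 5.37 (standard error 0.34), 6.41 (0.34) in Phase 1 cells and 6.08 (0.27).

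*F13a1* (chr13:36867178-37050244, minus strand) showed the same order with smaller steps, and its level with sgCbfb differed between stages. In LPs of the first experiment it was 14.8, 9.29 and 9.63 CPM with sgCont and 238.4, 172.1 and 158.4 CPM with sgCbfb. In Phase 1 cells it was 4.24, 2.58 and 1.47 CPM with sgCont and 90.8, 73.5 and 78.4 CPM with sgCbfb. The 4 groups did not overlap, with sgCbfb LPs highest, then sgCbfb Phase 1 cells, sgCont LPs and sgCont Phase 1 cells. In the second experiment it was 7.38, 4.73 and 8.04 CPM with sgCont and 166.0, 228.5 and 187.7 CPM with sgCbfb. With sgCTCF it was 3.49, 1.67 and 3.47 CPM, below every sgCont library, and with sgMed12 it was 4.52, 5.81 and 5.39 CPM, overlapping sgCont. The sgCbfb differences were 3.97 (standard error 0.30), 4.51 (0.30) and 4.68 (0.26) on the log2(CPM + 1) scale in LPs, Phase 1 cells and LPs of the second experiment, and the ratios of means were 16.9, 29.3 and 28.9. Between stages within sgCbfb, the Phase 1 minus LP difference was -1.20 (0.30) for *F13a1* and -0.08 (0.34) for *Mrc1*. The exons of *F13a1* share 74 bases with *Gm30489* on the other strand.

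**Figure D1:**
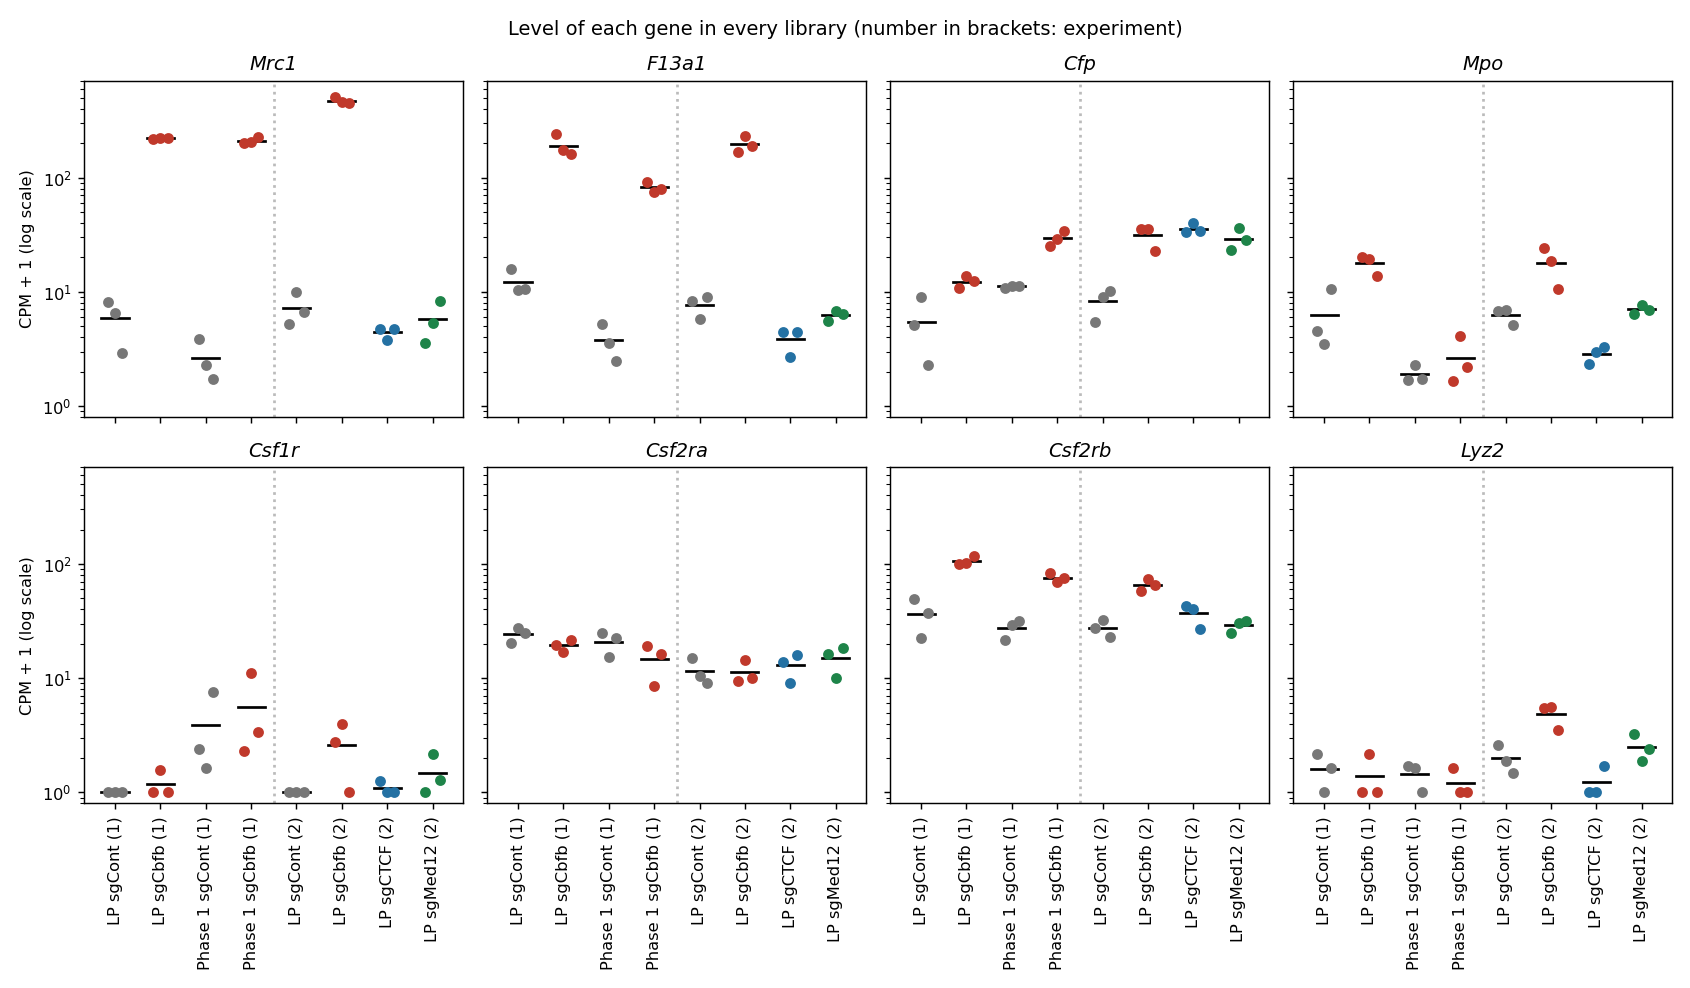
Level of each of the 8 genes in every library, on a log axis of CPM + 1, with 1 point per library, a bar at the mean of 3 libraries and a dotted line between the separately scaled experiments. *Mrc1* and *F13a1* are high in the 3 sgCbfb groups only, *Cfp* is also high with sgCTCF and sgMed12, and *Csf2ra* stays between 7.54 and 26.6 CPM throughout.

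The start regions of *Mrc1* and *F13a1* are shown because these genes moved together, and that of *Cfp* because it moved with other sgRNAs as well. Each window holds 250 bases before and 50 after a RefSeq start on GRCm38.p6, read 5′ to 3′ on the strand of the gene. Among the windows used, 6 of the 8 genes had 7, and no window of *Csf1r* or *Csf2rb* was searched. Capitals mark matches to GAGGAAG, the core of a PU.1 site, or to AGGNGGC, part of the CTCF motif, on either strand. The RUNX core TGTGGT was searched as well. *Mrc1* (chr2:14229164-14229463, plus strand) has 2 PU.1 matches, at -168 and -36 from the start. *F13a1* has 2 starts, of which one (chr13:37050195-37050494, minus strand) has 2 PU.1 matches and the other (chr13:37049164-37049463, minus strand) has 1 PU.1 and 1 CTCF match. *Cfp* (chrX:20931506-20931805, minus strand) has none of the 3.
Mrc1: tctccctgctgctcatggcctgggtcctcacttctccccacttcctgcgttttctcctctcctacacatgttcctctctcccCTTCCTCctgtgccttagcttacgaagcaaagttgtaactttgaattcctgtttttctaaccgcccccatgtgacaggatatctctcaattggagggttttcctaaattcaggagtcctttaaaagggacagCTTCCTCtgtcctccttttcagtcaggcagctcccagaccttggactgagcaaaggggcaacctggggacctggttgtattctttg
F13a1, first start: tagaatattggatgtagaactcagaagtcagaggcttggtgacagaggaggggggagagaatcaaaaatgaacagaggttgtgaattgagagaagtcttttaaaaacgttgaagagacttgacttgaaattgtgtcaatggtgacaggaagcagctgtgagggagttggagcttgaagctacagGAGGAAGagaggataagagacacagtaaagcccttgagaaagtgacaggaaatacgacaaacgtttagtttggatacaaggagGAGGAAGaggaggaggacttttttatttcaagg
F13a1, second start: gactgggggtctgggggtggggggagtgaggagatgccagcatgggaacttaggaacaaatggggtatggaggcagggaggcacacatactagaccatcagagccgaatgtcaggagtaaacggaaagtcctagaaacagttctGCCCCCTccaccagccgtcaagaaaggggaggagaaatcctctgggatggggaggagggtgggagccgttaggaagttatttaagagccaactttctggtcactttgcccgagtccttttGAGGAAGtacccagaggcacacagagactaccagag
Cfp: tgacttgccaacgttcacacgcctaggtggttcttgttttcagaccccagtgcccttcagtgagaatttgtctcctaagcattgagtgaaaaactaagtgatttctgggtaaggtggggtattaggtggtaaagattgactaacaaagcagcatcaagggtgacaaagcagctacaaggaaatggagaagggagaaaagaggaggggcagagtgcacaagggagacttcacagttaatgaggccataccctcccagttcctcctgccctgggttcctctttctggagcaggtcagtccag
The PU.1 core was present in 5 of the 7 windows, namely *Mrc1*, both of *F13a1*, *Mpo* and *Csf2ra*, and in 13.6% of all 32851 windows of this length that were used. The RUNX core was in the *Lyz2* window alone, against 16.8% of all windows, and the CTCF core in the second *F13a1* window alone, against 29.4%. A match of these letters is a description and not a measured site, and the windows are short.

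*Cfp* (chrX:20925454-20931555, minus strand) differed from *Mrc1* and *F13a1* in that it was also higher with sgCTCF and sgMed12. In the second experiment it was 4.48, 7.97 and 9.25 CPM with sgCont, 32.2, 39.3 and 32.8 CPM with sgCTCF and 22.04, 35.2 and 27.5 CPM with sgMed12. Every library of either group lay above every sgCont library. The rise with sgCTCF was 4.80-fold (log2 difference 2.16, standard error 0.24, limma adjusted P = 9.8e-07), and that with sgMed12 3.90-fold (1.85, 0.24, adjusted P = 6.9e-05). The sgMed12 and sgCTCF groups overlapped (-0.31, 0.24, limma adjusted P = 0.38). With sgCbfb it was 34.6, 34.3 and 21.9 CPM, also above sgCont (1.94, standard error 0.24), and overlapping both other groups. Both comparisons use the sgCont libraries that also served the sgCbfb comparison.

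In the first experiment *Cfp* was 4.13, 8.05 and 1.28 CPM in sgCont LPs and 9.87, 12.6 and 11.4 CPM in sgCbfb LPs. In Phase 1 cells it was 9.88, 10.3 and 10.3 CPM with sgCont and 23.99, 28.3 and 33.0 CPM with sgCbfb. Phase 1 sgCont cells lay above LPs in 3 of 3 libraries, but the difference of 1.24 (standard error 0.45) did not pass the test (limma adjusted P = 0.11). Without LP sgCont replicate 2 it passed (1.70, limma adjusted P = 0.036), and over all alternatives the adjusted P ranged from 0.036 to 0.39. The sgCbfb differences were 1.37 (0.45) in LPs and 1.39 (0.45) in Phase 1 cells, nearly the same size at either stage.

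**Figure D2:**
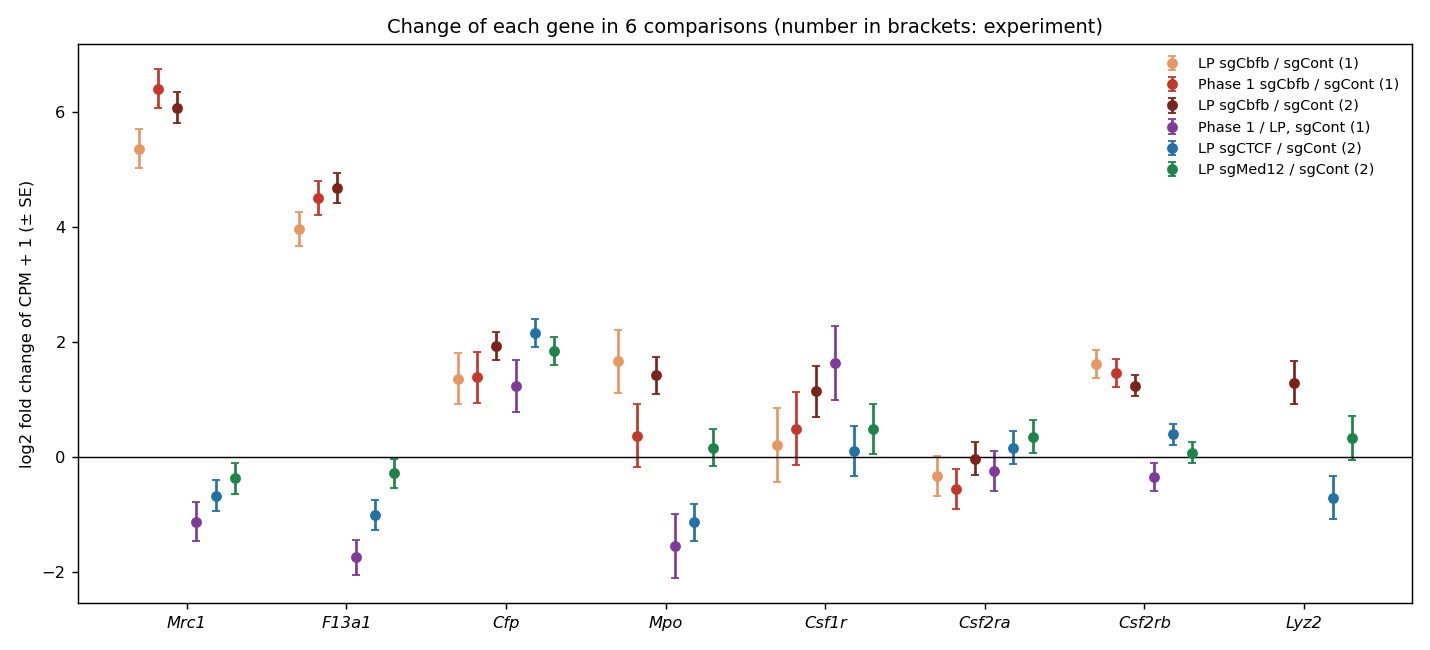
Difference in log2(CPM + 1) for each of the 8 genes in 6 comparisons, with points at the limma estimate and bars of 1 standard error. *Mrc1* and *F13a1* lie between 3.97 and 6.41 in the 3 sgCbfb comparisons and at or below 0 elsewhere, and *Cfp* is the only one of the 8 past the thresholds with sgCTCF and sgMed12.

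A gene was called when its limma adjusted P was under 0.05, the ratio of group means exceeded 2-fold and a mean exceeded 10 CPM. With sgCTCF, *Cfp* was the 1 gene of 8 called higher, where 1.81% of all tested genes were, and none was called lower (0.622% of all). *F13a1* (-1.01, standard error 0.26, limma adjusted P = 0.011) and *Mpo* (-1.13, 0.32, adjusted P = 0.020) fell with sgCTCF in 3 of 3 libraries but stayed under 10 CPM in both groups. *Mrc1*, also lower in 3 of 3, did not pass (-0.67, 0.27, limma adjusted P = 0.12). All libraries were below sgCont for these 3 of the 8 genes, against 15.1% of tested genes, and above it for *Cfp* (16.0%). With sgMed12, *Cfp* was again the 1 gene called higher (0.668% of all, 88 genes, a count that was 24, 243 and 22 without sgMed12 replicates 1, 2 and 3 and 35 without sgCont replicate 2) and the 1 gene above sgCont in every library (9.33% of all), with none below (11.9%), and *Mrc1* (-0.36, 0.27, limma adjusted P = 0.44), *F13a1* (-0.28, 0.26, adjusted P = 0.54) and *Mpo* (0.17, 0.32, adjusted P = 0.80) overlapped sgCont. The sgMed12 values include replicate 2, which was closer to sgCont than to its own group. Over all alternatives, left-out libraries included, the lowest adjusted P with sgMed12 was 0.18 for *Mrc1*, 0.34 for *F13a1* and 0.75 for *Mpo*. Set against sgCTCF, sgMed12 had higher *Mpo* (1.30, 0.32, limma adjusted P = 0.0049) and *F13a1* (0.72, 0.26, adjusted P = 0.047), both under 10 CPM, and none of the 8 was called (1.71% of all were called higher and 4.01% in either direction). Every sgMed12 library was above every sgCTCF library in 3 of the 8 genes (14.7% of all) and below in none (17.6%).

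Between Phase 1 cells and LPs with sgCont, *F13a1* was the 1 gene of 8 that was called, 4.07-fold lower in Phase 1 cells (-1.74, standard error 0.30, limma adjusted P = 0.00055, lower in 3 of 3 libraries). Of all tested genes, 1.74% were called lower, 1.65% higher and 3.39% in either direction. Phase 1 libraries lay above all LP libraries in 2 of the 8 genes (9.77% of all) and below in 2 (12.1%). The call was lost when only these 2 groups entered the fit (adjusted P = 0.078) and, since the LP mean then fell under 10 CPM, without LP sgCont replicate 1, and over all alternatives the adjusted P ranged from 8.3e-05 to 0.078. *Mrc1* (-1.12, 0.34, limma adjusted P = 0.055) and *Mpo* (-1.54, 0.55, adjusted P = 0.11) did not pass. *Csf2ra* (-0.24, limma adjusted P = 0.76) and *Csf2rb* (-0.34, adjusted P = 0.47) overlapped between stages. The sgCont LPs of this comparison are those of the LP sgCbfb comparison.

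In the sgCbfb comparisons, where the choice of the 8 genes used the outcome, 3 of 8 were past the thresholds upwards in LPs and 3 of 8 in Phase 1 cells of the first experiment (*Mrc1*, *F13a1* and *Csf2rb* at either stage), where 1.10% and 1.96% of all tested genes were. None was past them downwards (0.597% and 1.56% of all). Every sgCbfb library lay above every sgCont library in 5 of the 8 genes in LPs (9.11% of all tested genes) and in 4 in Phase 1 cells (11.7%), and below in none (8.35% and 9.28%). In LPs of the second it was 5 of 8 (*Mrc1*, *F13a1*, *Cfp*, *Mpo* and *Csf2rb*), where 2.67% of all were, and none downwards (1.65%), with 6 of 8 above sgCont in every library (15.5%) and none below (15.0%). Between stages within sgCbfb, *F13a1* and *Mpo* were past them downwards, and 0.453% of all tested genes were (1.19% in either direction and 0.740% upwards). There, 2 of the 8 lay above in every library (9.19% of all) and 3 below (9.74%).

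*Mpo* (chr11:87793581-87804413, plus strand), the granule peroxidase, was low throughout. In LPs it was 3.54, 2.48 and 9.63 CPM with sgCont and 19.0, 18.4 and 12.9 CPM with sgCbfb (first experiment). In the second it was 5.80, 5.91 and 4.14 CPM with sgCont, 23.3, 17.4 and 9.57 CPM with sgCbfb, 1.34, 1.95 and 2.31 CPM with sgCTCF and 5.37, 6.68 and 5.96 CPM with sgMed12. In Phase 1 cells it had 1, 2 and 1 reads with sgCont and 1, 5 and 2 reads with sgCbfb. It was thus above sgCont with sgCbfb in LPs of both experiments, by 3.21-fold and 3.17-fold, and in Phase 1 cells the libraries overlapped. Its exons share 512 bases with *Gm11505* on the other strand, and since the use of strand in counting is not given in the sources used here, reads of the pair cannot be told apart.

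*Lyz2* (chr10:117277331-117282321, minus strand) had at most 2 reads in any library of the first experiment. In the second it had 6, 3 and 2 reads with sgCont, 15, 17 and 10 with sgCbfb, 0, 0 and 3 with sgCTCF and 8, 3 and 5 with sgMed12. In CPM the sgCbfb libraries were at 4.47, 4.56 and 2.52 and the sgCont libraries at 1.58, 0.886 and 0.487, without overlap. Its tandem copy *Lyz1* was at 0 in all 24 libraries. Of the 75-base windows in the last 1000 bases of *Lyz2* transcripts, 7.99% also occur in *Lyz1*, so a part of its reads could belong to either.

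*Csf1r* (chr18:61100598-61132149, plus strand) was not detectable in LPs with sgCont, at 0 in all 6 libraries of both experiments. It had 0, 1 and 0 reads in sgCbfb LPs of the first experiment and 6, 11 and 0 in those of the second. In Phase 1 cells it had 2, 1 and 9 reads with sgCont and 2, 16 and 4 with sgCbfb. The spread within a group was as wide as the differences between groups, and neither the stage difference (1.64, standard error 0.64, limma adjusted P = 0.15) nor that with sgCTCF (0.11, adjusted P = 0.92) passed. Its exons share 873 bases with *Hmgxb3* on the other strand.

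*Csf2ra* (chr19:61223957-61228429, minus strand), the GM-CSF binding chain, was at similar levels in all groups. In the first experiment its group means were 23.3 ± 3.60 and 18.4 ± 2.32 CPM in LPs with sgCont and sgCbfb, and 19.8 ± 5.06 and 13.7 ± 5.50 CPM in Phase 1 cells (SD, n = 3). In the second they were 10.5 ± 3.10, 10.3 ± 2.74, 11.99 ± 3.56 and 13.9 ± 4.33 CPM with sgCont, sgCbfb, sgCTCF and sgMed12. Libraries of sgCont and of every other sgRNA overlapped, and the tests against sgCont gave limma adjusted P = 0.80 for sgCTCF and 0.49 for sgMed12.

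*Csf2rb* (chr15:78325752-78353847, plus strand), the chain shared by the receptors for GM-CSF, IL-3 and IL-5, was above sgCont in all 3 sgCbfb groups. In LPs of the first experiment it was 47.8, 21.7 and 36.0 CPM with sgCont and 98.8, 101.0 and 117.0 CPM with sgCbfb. In Phase 1 cells it was 20.5, 28.4 and 30.8 CPM with sgCont and 81.7, 67.9 and 73.7 CPM with sgCbfb. In the second experiment it was 26.6, 31.6 and 21.9 CPM with sgCont and 56.9, 72.9 and 64.2 CPM with sgCbfb. The ratios of means were 3.00, 2.80 and 2.42, and no sgCbfb library overlapped sgCont. With sgCTCF (42.1, 39.3 and 26.1 CPM, limma adjusted P = 0.19) and sgMed12 (24.02, 29.6 and 30.7 CPM, adjusted P = 0.85) the libraries overlapped sgCont.

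*Csf2rb2* (chr15:78282507-78305721, minus strand), the neighbouring IL-3-specific copy of the chain, is not one of the 8 genes. As for other list genes below, its P values with sgCbfb are a description, since the lists were drawn up with earlier results known. It rose with sgCbfb from 2.71 to 28.4 CPM in LPs (log2 difference 3.08, standard error 0.53, limma adjusted P = 0.0010), from 2.53 to 15.2 CPM in Phase 1 cells (2.21, 0.53, adjusted P = 0.012) and from 2.16 to 15.1 CPM in the second experiment (2.35, 0.32, adjusted P = 5.6e-06), higher in 3 of 3 libraries each time. The Phase 1 call was lost without sgCbfb replicate 2 or 3. Of the 75-base windows in the last 1000 bases of *Csf2rb* transcripts, 3.54% also occur in *Csf2rb2*, and the split of such reads is uncertain. The sum of both genes was 37.9 ± 14.2 CPM in sgCont LPs and 133.9 ± 11.3 CPM in sgCbfb LPs, 29.1 ± 4.45 and 89.6 ± 3.14 CPM in Phase 1 cells, and 28.9 ± 5.32 and 79.8 ± 9.19 CPM in the second experiment (SD, n = 3).

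Other genes of the CSF receptor pathway were taken from a list of 14, of which 9 were tested in each experiment. With sgCbfb, 2 were called higher in LPs (*Cish* and *Csf2rb2*), 3 in Phase 1 cells (with *Socs2*) and 3 in the second experiment (*Csf1*, *Cish* and *Csf2rb2*), where 1 was called lower (*Socs3*, not without sgCont replicate 2 or sgCbfb replicate 3). Over all tested genes 1.10%, 1.96% and 2.67% were called higher, and 1.69%, 3.52% and 4.33% in either direction. Median differences over the list were 0.35, 0.77 and 0.09, beside 0.00, 0.06 and -0.01 over all tested genes. *Cish*, a feedback inhibitor of STAT5 signalling, rose from 49.3 to 167.2 CPM (1.80, standard error 0.23, limma adjusted P = 3.3e-05), from 40.8 to 119.7 CPM (1.53, 0.23, adjusted P = 0.00014) and from 48.3 to 169.6 CPM (1.80, 0.15, adjusted P = 1.1e-09). *Socs2*, of the same inhibitor family, was 2214 CPM in LPs and 558.8 CPM in Phase 1 cells with sgCont, and rose to 1594 CPM in Phase 1 cells with sgCbfb (1.51, 0.09, limma adjusted P = 6.7e-10). *Csf1*, the M-CSF ligand, rose from 2.38 to 10.0 CPM with sgCbfb in the second experiment (1.76, 0.34, limma adjusted P = 0.00061), a call lost without sgCbfb replicate 1 or 2. *Csf3r*, *Csf2* and *Csf3* were at 0 in all 24 libraries. No gene of the list was called with sgCTCF or sgMed12 by limma or edgeR, with 2 in each at an unadjusted P under 0.05, and 1 was called without sgCont replicate 2 or sgCTCF replicate 3, and without sgMed12 replicate 2. Over all tested genes, 2.43% and 1.03% were called.

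Of the 29 monocyte and macrophage genes beside the 8, 19 were tested in the first and 16 in the second experiment. With sgCbfb, 2 were called higher and none lower in LPs (median 0.22), 4 higher and 2 lower in Phase 1 cells (median -0.24) and 4 higher and 1 lower in LPs of the second experiment (median 0.36). The called share over all tested genes was 1.69%, 3.52% and 4.33% in either direction. *Ly6c2*, a surface protein of classical monocytes that lymphoid progenitors carry as well, rose in all 3, from 15.5 to 88.2 CPM (2.44, standard error 0.23, limma adjusted P = 6.4e-07), from 8.74 to 98.4 CPM (3.35, 0.23, adjusted P = 2.3e-09) and from 11.2 to 270.4 CPM (4.49, 0.24, adjusted P = 2.5e-13). *Fcgr3*, an activating Fc receptor, rose from 36.2 to 82.9 CPM, from 13.9 to 53.3 CPM and from 38.0 to 76.9 CPM (limma adjusted P = 0.0062, 3.5e-05 and 0.00025). *Adgre1*, which encodes F4/80, rose in Phase 1 cells from 17.3 to 99.3 CPM (2.49, 0.21, limma adjusted P = 4.4e-08). With sgCont and sgCbfb it was 60.3 and 100.3 CPM in LPs of the first and 58.0 and 61.9 CPM in those of the second experiment. *Emilin2* and *Ccr2*, the monocyte chemokine receptor, fell in Phase 1 cells, from 30.3 to 3.18 CPM and from 65.0 to 26.8 CPM (limma adjusted P = 0.0044 and 0.012), the latter not without sgCbfb replicate 1. In the second experiment the 5 calls fell to 1 without sgCbfb replicate 1, which left *Ly6c2*, to 2 without sgCbfb replicate 2 and to 3 without sgCont replicate 1 or 2, and the 2 in LPs of the first fell to 1 without sgCont replicate 3.

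The summed level of the 29 genes was 181.1 to 254.4 CPM in sgCont and 366.1 to 390.0 CPM in sgCbfb LPs of the first experiment, and 251.3 to 282.4 and 421.6 to 442.8 CPM in Phase 1 cells. In the second it was 182.8 to 253.7 CPM with sgCont, 428.8 to 607.6 CPM with sgCbfb, 434.3 to 497.3 CPM with sgCTCF and 187.3 to 254.9 CPM with sgMed12. Much of the rise with sgCbfb was *Ly6c2*, which went from 15.5 to 88.2, from 8.74 to 98.4 and from 11.2 to 270.4 CPM in the 3 comparisons. The sum was also above sgCont with sgCTCF, where *Mrc1* and *F13a1* were at 2.78 to 3.76 CPM and 1.67 to 3.49 CPM. With sgCTCF, 4 of the 16 tested genes were called higher and none lower (median 0.41), namely *Ly6c2* (80.0 against 11.2 CPM), *Ccr2* (123.2 against 23.6 CPM), *Lgals3* (62.0 against 23.7 CPM) and *Fcgr3* (80.9 against 38.0 CPM, not called without sgCTCF replicate 1). Over all tested genes, 1.81% were called higher with sgCTCF, and 0.668% higher and 0.364% lower with sgMed12. With sgMed12, *Ccl9* was called higher (12.4 against 3.37 CPM, not without sgCont replicate 2 or 3 or sgMed12 replicate 3) and *Lgals3* lower (6.85 against 23.7 CPM). Whether other cells contributed to these levels was not tested beyond the markers at 0 named above.

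**Figure D3:**
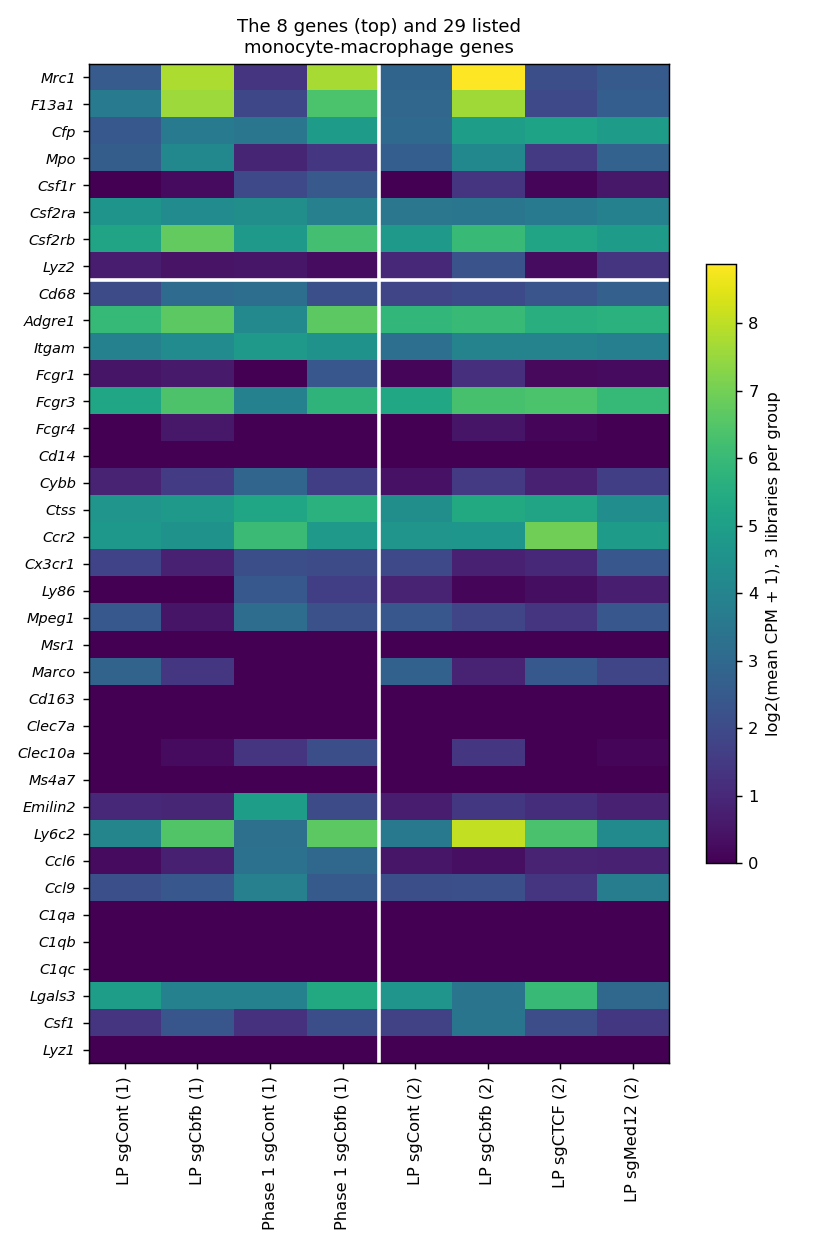
Group means of the 8 genes and of 29 further monocyte and macrophage genes, as log2(mean CPM + 1), with genes in rows and the 8 groups in columns. Levels are to be compared along a row and within an experiment. The C1q genes and *Cd163* are among the 9 at 0 in every group.

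Transcription factors of the myeloid lineage came from a list of 15, with 14 and 13 tested. *Spi1*, which encodes PU.1, had group means of 78.0 to 118.2 CPM and was called in none of the comparisons, with limma adjusted P of 0.45, 0.56 and 0.38 for sgCbfb. *Irf8*, a regulator of monocytes and dendritic cells, was the 1 factor called in sgCbfb LPs of the first experiment, where it fell from 80.5 to 25.7 CPM (-1.63, standard error 0.22, limma adjusted P = 6.8e-05). The count was 2 with a filter on the mean, the replicate block, edgeR or no fold threshold, and 1 to 3 when single libraries were left out (3 without LP sgCbfb replicate 3). In sgCbfb Phase 1 cells 2 were called higher, *Zeb2* from 33.2 to 83.9 CPM (1.31, 0.21, limma adjusted P = 0.00036) and *Irf5* from 9.93 to 32.6 CPM (2.32, 0.68). *Zeb2* was also higher with sgCbfb in LPs, but under the fold threshold. It rose there from 50.5 to 98.8 CPM (0.95, 0.21, limma adjusted P = 0.013). In LPs of the second experiment it rose from 47.7 to 93.6 CPM (0.94, 0.17, limma adjusted P = 0.00023). The stage difference of its sgCbfb effect was 0.36 (0.30). The *Irf5* call (adjusted P = 0.044) was lost when any of 10 of the 12 libraries was left out. By limma or edgeR no factor was called with sgCbfb in the second experiment, where 9 of the 13 had an unadjusted P under 0.05, beside 23.9% of all tested genes. *Irf8* was 80.8 CPM with sgCont and 65.9 CPM with sgCbfb there (-0.34, 0.20, limma adjusted P = 0.33). Called in either direction were 1.69%, 3.52% and 4.33% of all tested genes in the 3 sgCbfb comparisons. The median differences were 0.04, 0.34 and 0.65, beside 0.00, 0.06 and -0.01 over all tested genes. With sgCTCF 1 factor was called (2.43% of all), *Zeb2*, which fell from 47.7 to 22.5 CPM (-1.06, 0.17, limma adjusted P = 0.00011), a call lost without sgCTCF replicate 3.

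Of 11 scavenger and mannose receptor genes, 3 were tested, and the 1 call against sgCont was *Scarb1*, lower with sgCTCF (16.6 against 33.3 CPM), which was lost under median-of-ratios scaling and without sgCont replicate 1 or sgCTCF replicate 2. Of 16 complement, coagulation and transglutaminase genes, 3 and 5 were tested, and the 1 call was *Tgm2*, higher in Phase 1 than in LP sgCont cells (10.4 against 0.393 CPM) and lost without Phase 1 sgCont replicate 3. Neutrophil granule genes summed to 2.95 to 8.56 CPM and 3.17 to 10.46 CPM in the 2 experiments, with none of the 2 tested genes called.

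Markers of other cells were read in the same libraries. The 12 stroma genes summed to 4.28 to 25.2 CPM in the first and 3.27 to 51.1 CPM in the second experiment, with no call against sgCont. Erythroid and megakaryocyte genes summed to at most 8.43 CPM, so the megakaryocyte genes that often accompany *F13a1* were at or near 0 (*Pf4* at 0 in all libraries). The mast cell and basophil genes summed to 50.3 to 80.7 CPM in Phase 1 sgCont cells and to at most 5.03 CPM elsewhere, nearly all of it *Cpa3*. Of 12 dendritic cell and antigen presentation genes, 9 and 8 were tested. Their sum was 1143 to 1300 CPM with sgCont and 450.9 to 510.0 CPM with sgCbfb in LPs of the first experiment, 333.8 to 416.8 and 213.9 to 297.6 CPM in Phase 1 cells, and 630.2 to 842.6 and 256.7 to 318.6 CPM in the second experiment, so that it was lower with sgCbfb in all 3, while *Mrc1* and *F13a1* were higher. With sgCbfb 1 of these genes was called lower in LPs (*Ccr9*), 5 in Phase 1 cells (*Ccr9*, *Cd74*, *Itgax*, *H2-Aa* and *H2-Eb1*) and 2 in the second experiment (*Ccr9* and *Cd74*), with medians of -0.25, -1.34 and -0.83 and none called higher. Over all tested genes, 0.597%, 1.56% and 1.65% were called lower. Between stages with sgCont, 5 of the dendritic list were called higher in Phase 1 cells and *Ccr9* lower (1.65% and 1.74% of all tested genes). The median difference there was 1.53 while the sum was lower in Phase 1 cells, so the sum need not follow most genes of the list. The sum of the list was 925.9 to 1215 CPM with sgCTCF, where *Cd74* was called higher (1.81% of all were), and 703.8 to 1097 CPM with sgMed12, with no call. The *Cd74* calls were each lost when any of 1 to 5 single libraries was left out. Of 10 early T cell genes, all 10 were tested in the first and 7 in the second experiment. With sgCbfb, 5 were called lower in Phase 1 cells (median -1.73), where 1.56% of all tested genes were. In each LP comparison 1 was called higher (1.10% and 2.67% of all) and 1 lower (0.597% and 1.65%). Of 10 lymphoid progenitor genes, 9 were tested in each experiment. With sgCbfb, 3, 3 and 2 were called higher in the 3 comparisons and none lower. Over all tested genes, 1.10%, 1.96% and 2.67% were called higher. The medians over this list were below 0, at -0.10, -0.10 and -0.55. *Dntt* and *Rag1*, the lymphoid genes for terminal transferase and a recombinase subunit, were called higher in all 3. *Dntt* rose from 39.4 to 251.0, from 5.11 to 55.5 and from 30.6 to 277.7 CPM. *Rag1* rose from 20.7 to 67.5, from 15.7 to 55.0 and from 9.69 to 67.6 CPM. The part of any of these in the values of the 8 genes was not tested.

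Across the 12 libraries of an experiment, *Mrc1* and *F13a1* followed each other with r = 0.967 and 0.983 on log2(CPM + 1). These libraries share 4 groups, so the value mostly describes the group pattern. *Csf2rb* followed *Mrc1* with r = 0.908 and 0.865, *Cfp* with 0.638 and 0.228 and *Csf2ra* with -0.468 and -0.245. Ranked over 8616 genes by the mean of both r, the patterns most like *Mrc1* outside the 8 genes were those of *Rag1* (0.967), *Arl5a* (0.965), *Runx1* (0.956), *Elk3* (0.955) and *P2ry12* (0.954). The patterns most like *F13a1* were those of *Runx1* (0.973), *Peg13* (0.968), *Rag1* (0.958), *Armcx4* (0.957) and *Prkce* (0.956). *Runx1*, which encodes a partner of CBFβ, was 386.0 CPM in sgCont and 779.5 CPM in sgCbfb LPs, 278.2 and 603.1 CPM in Phase 1 cells, and 257.0 and 597.9 CPM in the second experiment.

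Genes with any part within 300 kb of the 8 were described as well, by a window chosen after values had been seen, and without a test. Around *Mrc1*, 3 of 8 tested neighbours passed the thresholds upwards with sgCbfb in LPs and in Phase 1 cells and 3 of 9 in the second experiment, none downwards, beside the 1.10%, 1.96% and 2.67% of all tested genes. *Hacd1*, whose start lies at -173.3 kb from that of *Mrc1*, was 22.7 and 55.8, 18.0 and 66.1, and 37.7 and 81.8 CPM with sgCont and sgCbfb in the 3 comparisons. *Stam*, at -155.3 kb, was 35.3 and 98.3, 28.4 and 89.4, and 42.6 and 93.6 CPM. *Cacnb2*, at 373.7 kb, was 18.0 and 55.9, 19.2 and 56.5, and 19.7 and 62.3 CPM. Their differences of 1.11 to 1.85 on the log2(CPM + 1) scale were smaller than the 5.37 to 6.41 of *Mrc1*, and no neighbour of *Mrc1* passed with sgCTCF or sgMed12. Near *F13a1* (2 and 1 tested) and *Cfp* (10 tested) no neighbour passed in any comparison. Near *Mpo* (13 tested), *Tspoap1* passed upwards with sgCbfb in Phase 1 cells and in the second experiment. Near *Csf1r* (7 tested), *Cd74* passed downwards with sgCbfb in the same comparisons, and *Camk2a* upwards in Phase 1 cells. Near *Csf2rb*, *Csf2rb2* was higher with sgCbfb as given above, and *Il2rb*, the IL-2 and IL-15 receptor chain 169.5 kb away, was lower, at 39.1 and 3.95, 16.4 and 3.10, and 42.7 and 0.367 CPM.

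**Figure D4:**
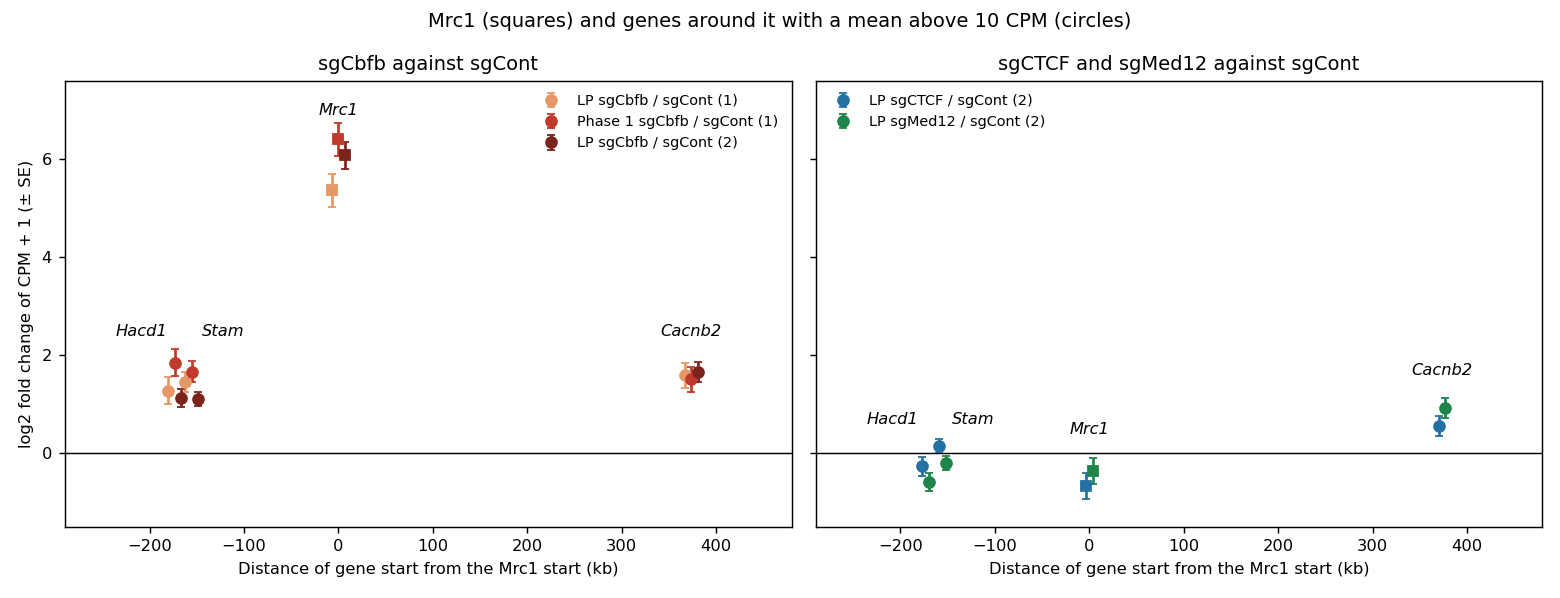
Distance of each gene's start from the start of *Mrc1*, in kb, against its sgCbfb difference in log2(CPM + 1) with bars of 1 standard error, with *Mrc1* as squares and neighbours with a mean over 10 CPM as circles, moved slightly sideways to be seen. The right panel shows the same for sgCTCF and sgMed12. *Hacd1* and *Stam*, before *Mrc1*, and *Cacnb2*, after it, lie between 1.11 and 1.85 with sgCbfb. *Tmem236*, under 10 CPM, is not drawn.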

How the data were processed

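QuantSeq libraries (FWD kit, 75-base reads) of 8 groups, 3 libraries each, were grouped by their labels. Per the study's methods, fastp served for trimming and STAR for alignment to mm10. Other tools and versions are not given in the sources used here. The values deposited by the authors, 1 per gene and library, are named TPM but are CPM, since within a library they are whole multiples of a single step whatever the length of the gene. Reads per gene were thus recovered as counts for 99.99% or more of the deposited values (tolerance 0.2 of a read). A line without a gene was left out of each file. Of 55487 gene identifiers, 55141 are in GENCODE M21, which gave positions.

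After a filter (1 CPM or more in 3 or more libraries), 13239 and 13177 genes were tested on log2(CPM + 1), which understates the change of low genes. limma 3.58.1 with trended, moderated variances was used in R 4.3.3, with the 4 groups of an experiment fitted together, and P values were adjusted by Benjamini-Hochberg. Called genes had an adjusted P under 0.05, means differing by over 1 on the log2 scale and over 10 CPM in one of the groups. For the stage difference of the sgCbfb effect the adjusted P alone was used. An exact permutation test of 3 against 3 cannot go below P = 0.1. The 8 genes and the 12 lists (164 genes) were chosen with earlier results of these data known, so the 8 genes carry no P value in the sgCbfb comparisons. The lists were fixed by role. P values of list genes in the sgCbfb comparisons, and for the stage difference of the sgCbfb effect, do not account for that knowledge. They are to be read as a description. Genes named are the 8 genes, called genes of the lists, the sgRNA targets, the 5 genes most like *Mrc1* and *F13a1*, and neighbours. Some items are not reported here. In simulated data, 198 of 200 genes changed 4-fold were called for Phase 1 against LP sgCont cells (12930 genes) and 198 of 200 for sgCTCF against sgCont (12843 genes). All changed genes there were over 10 CPM. The spread between libraries was set to the same value for every gene and not taken from these libraries. The share called therefore need not hold for these data or for genes of low level.

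The alternatives were other pseudocounts (0.1 and 5), no filter, a filter at a mean of 10 CPM, scaling by the median of ratios, a fit of the compared groups alone, no fold threshold, the replicate number as a block, edgeR 4.0.16 (quasi-likelihood, TMM) on the recovered reads, and each library left out. Plots were drawn with matplotlib 3.10.9.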

Additional observations from a re-analysis of the deposited data

Results flagged for a closer look

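In 14 genes from the lists or with a pattern like one of the 8 described, the sgCbfb effect differed between Phase 1 cells and LPs of the first experiment by the interaction in the limma fit (n = 3 libraries in each of the 4 groups), given here as the Phase 1 effect minus the LP effect on the log2(CPM + 1) scale. The difference was positive in 6 and negative in 8. Over all 13239 tested genes it differed in 168, positive in 81 and negative in 87. For the 8 genes described, the difference rests on the contrasts that chose them and is given without a P. It was 1.04 (standard error 0.48) for *Mrc1*, 0.54 (0.43) for *F13a1*, 0.02 (0.64) for *Cfp*, -1.29 (0.78) for *Mpo*, -0.16 (0.35) for *Csf2rb*, -0.23 (0.50) for *Csf2ra* and 0.28 (0.91) for *Csf1r*. *Lyz2* was not in this fit. *Lgals3*, which encodes galectin-3, had 2.60 (0.50, limma adjusted P = 0.0069), with sgCont and sgCbfb means of 13.9 and 41.6 CPM in Phase 1 cells against 29.6 and 13.8 CPM in LPs. *Adgre1* had 1.77 (0.29, adjusted P = 0.0018), with 17.3 and 99.3 CPM against 60.3 and 100.3 CPM. *Flt3*, the receptor for Flt3L, had 1.69 (0.41, adjusted P = 0.041), with 36.1 and 98.5 CPM against 272.7 and 260.4 CPM. *Irf8* had 1.67 (0.31, adjusted P = 0.0061), with 62.1 and 64.6 CPM against 80.5 and 25.7 CPM. In LPs of the second experiment, which are not in this fit, *Irf8* was 80.8 and 65.9 CPM and *Adgre1* 58.0 and 61.9 CPM. *Socs2* had 1.28 (0.13, adjusted P = 7.7e-06), with 558.8 and 1594 CPM against 2214 and 2599 CPM. *Armcx4* had -1.08 (0.24, adjusted P = 0.023), with 31.8 and 84.7 CPM against 38.6 and 216.9 CPM. Among genes of early T cells and the receptor *Kit*, the values were -4.61 for *Cd3g* (0.76, limma adjusted P = 0.0017), -4.38 for *Il2ra* (0.45, adjusted P = 7.7e-06), -3.58 for *Tcf7* (0.69, adjusted P = 0.0070), -3.53 for *Cd3e* (0.77, adjusted P = 0.019), -2.28 for *Kit* (0.31, adjusted P = 0.00021) and -1.85 for *Gata3* (0.27, adjusted P = 0.00050). *Cpa3*, a mast cell protease, had -4.21 (0.84, limma adjusted P = 0.0098) and *Ccr9*, a chemokine receptor, 0.91 (0.20, adjusted P = 0.017). *Ccr9* was called lower with sgCbfb at both stages, so its positive value is a smaller fall in Phase 1 cells. The *Ccr9* and *Cd3e* differences no longer passed when any of 5 libraries was left out, and those of *Cd3e* and *Cpa3* with a pseudocount of 0.1 or with edgeR. The *Flt3* difference no longer passed when any of 8 libraries was left out, with a pseudocount of 0.1 or with no filter on low values.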

How the results depend on the processing

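Of the 8 genes, *F13a1* alone was called between Phase 1 cells and LPs with sgCont, and the number called was 0 with only the 2 groups in the fit and ranged from 0 (without LP sgCont replicate 1) to 2 (without LP sgCont replicate 2, with *Cfp*) when single libraries were left out. In the sgCTCF and sgMed12 comparisons *Cfp* stayed called in all 21 alternatives, with log2 differences of 1.72 to 2.34 and 1.44 to 2.04. The *Mrc1* difference with sgCbfb ranged from 4.56 to 5.67, 5.03 to 7.12 and 5.43 to 6.28 over the alternatives other than left-out libraries, the lowest in each with a pseudocount of 5. Over all genes, in the LPs of the second experiment 570 were called with sgCbfb and 1272 without the fold threshold. The sgCbfb effect differed between stages in 168 genes, and in 107 to 240 when single libraries were left out (107 without LP sgCont replicate 2, 108 and 111 without Phase 1 sgCbfb replicates 2 and 3). edgeR on the recovered reads called 160 higher and 109 lower genes with sgCbfb in LPs of the first and 354 and 218 in those of the second experiment, where limma called 145 and 79, and 352 and 218. Same-numbered libraries of different groups deviated together weakly at most (r = -0.0106 to 0.102 and -0.0635 to 0.111). In the second experiment all same-numbered pairs of sgCont with sgCbfb (0.0442 to 0.111) and with sgCTCF (0.0248 to 0.0448) were positive. Pairs of these groups with different numbers were all negative. Values were centred on their group means, so positive same-numbered pairs make the other pairs negative on average. The main fit did not pair libraries by number. With the replicate number as a block, the *F13a1* stage difference stayed called (limma adjusted P = 0.00014), 472 genes in place of 449 were called between stages with sgCont, and no call among the 8 genes changed in the tested comparisons. With 3 reads as the floor, *Csf1r*, *Lyz2*, *Mpo* in Phase 1 cells and *Mrc1* and *F13a1* in Phase 1 sgCont cells are at or near the limit of this depth.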
